A study of Mus musculus with 6 samples.

Results

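Kinesins, centromere proteins and mitotic kinases were compared between mouse embryonic stem cells (ES cells) that lack the zinc-finger gene Zscan10 and ES cells that carry it. The members are the 77 of 23244 loci whose gene symbol begins with Kif and a digit, Cenp and a letter, or Bub and 1 or 3, is an Aurora or Polo-like kinase gene (Aurka to Aurkc, Plk1 to Plk5), or is Ndc80, Nuf2, Spc24, Spc25, Ttk, Mad2l1, Knstrn, Incenp, Birc5 or Cdca8. Of these, 38 are kinesin loci by their Kif symbol, including the pseudogene Kif4-ps. Cenpe, a motor of the kinesin family, is counted with the Cenp genes, and the Kifc genes fall outside the rule. RNA depleted of ribosomal RNA was sequenced in 3 libraries of a subcloned Zscan10-null line (null) and in 3 libraries of the line with floxed, undeleted Zscan10, whose titles carry the mark -Tx (control). The labels give no other allele, agent or time, and what -Tx stands for is not given either. The null cells were a subclone, so genotype, clone and any difference in treatment cannot be told apart, and since the labels do not give separate cultures for the 3 libraries of a group, every p-value rests on a spread between libraries that may be technical. Both derive from an inducible Cre-loxP design. Values are read as FPKM (fragments per kilobase of transcript, scaled to the library's total of fragments), a unit that no header states.

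Zscan10 was at 5.49, 4.43 and 5.47 FPKM in the null libraries, against 44.2, 43.0 and 41.9 FPKM in the control libraries. The null mean was 11.9% of the control mean. The log2 fold change was -2.85 (limma adjusted p = 2.88e-06), and p was 0.1 by exact permutation (two-sided), which is as low as 3 against 3 libraries can reach. FPKM summed to 664555 to 699401 per library, and relative depth, read from the steps between low values, spanned 0.986 to 1.09 times that of control replicate 1. The ES cell genes Pou5f1, Nanog, Sox2, Zfp42 and Esrrb summed to 1732, 1699 and 1620 FPKM in null and to 1823, 1802 and 1784 FPKM in control libraries, so the markers of the labelled cell type were abundant in both groups. Of these 5, 2 were lower in null (40%, against 12.4% of all tested loci) and 0 were higher. The 2 were Zfp42 and Esrrb (log2 fold changes -0.23 and -0.21, limma adjusted p = 0.0188 and 0.00942). Of the fibroblast list (7 genes) 1 was tested, Thy1, which was higher in null (0.60, limma adjusted p = 0.0215), while Col1a1, at 0.0540 to 0.107 FPKM in null and 0.587 to 0.826 FPKM in control libraries, and Col1a2, at 0.0492 to 0.111 FPKM in null and 0.921 to 1.31 FPKM in control libraries, lay under the minimum set for the test with all null values below all controls. The list summed to 3.32 to 4.01 FPKM in null and 3.57 to 4.37 FPKM in control libraries, and the endoderm list (5 genes) to 2.39 to 2.79 FPKM in null and 2.69 to 3.07 FPKM in control libraries.

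Kinesins are motor proteins that walk along microtubules or take them apart. One set builds the mitotic spindle, moves chromosomes and completes cell division, and its genes are switched on before mitosis, whereas transport kinesins carry vesicles, organelles and RNA and are prominent in neurons. Centromere proteins mark the site on each chromosome where the kinetochore forms, the kinetochore binds spindle microtubules, and the Aurora, Polo-like and checkpoint kinases time and correct these attachments. ES cells divide fast, and genes of mitosis are abundant in them.

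Genes of mitosis often carry in their promoters a cell cycle genes homology region (CHR), bound by the MuvB complexes, and CCAAT boxes, bound by NF-Y. RefSeq promoter windows (GRCm38.p6, which is mm10; 250 bases before to 50 after a start) were found for 67 of the 77 members and were searched on both strands for the CHR letters TTTGAA and for CCAAT, which can share at most an edge base. The CHR letters stood in 9 of 10 windows of mitotic kinesins (90%), in 1 of 12 windows of transport kinesins (8.33%), in 14 of 39 windows of centromere, kinetochore, passenger, checkpoint and kinase members (35.9%) and in 11.9% of the 11659 windows of tested loci. CCAAT stood in 60%, 33.3%, 64.1% and 38.5% of the same sets, and both motifs in 60%, 0%, 33.3% and 5.01%. Across all 32851 RefSeq windows of this length, 17.9% held the CHR letters, 37.4% CCAAT and 6.95% both. The windows of mitotic kinesins had a median GC content of 60.2%, those of transport kinesins 68.2% and those of tested loci 61%. A match is a description of letters and not a binding site. A window lies at an annotated start, which for Kif2c and Kif14 is inside the locus and not at its 5′ end. Both count among the 9 mitotic kinesin windows with the CHR letters.

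**Figure D1:**
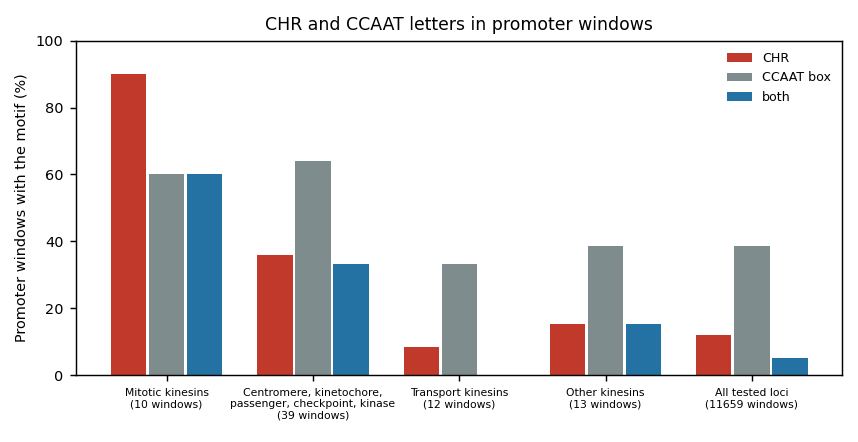
Share of promoter windows (%, vertical axis) that hold the CHR letters, CCAAT or both, for sets of member loci and for all tested loci. The CHR bar stands at 90% for mitotic kinesins, 8.33% for transport kinesins and 11.9% for all tested loci. The 90% counts the Kif2c and Kif14 windows, which lie at starts inside the locus.

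The windows shown next are from mitotic kinesin genes that were higher in null libraries (Kif2c, Kif18b, Kif22, Kif23), from 1 that did not pass the test (Kif11) and from transport kinesin genes that were lower (Kif5c, Kif3a), so that the letters can be compared. They are written 5′ to 3′ on the strand of the gene, with CHR and CCAAT matches of either strand in capitals. Positions are those of GRCm38.p6: chr4:117178723-117179022 (minus strand) for Kif2c, chr11:102925075-102925374 (minus) for Kif18b, chr7:127042371-127042670 (minus) for Kif22, chr9:61946750-61947049 (minus) for Kif23, chr19:37376132-37376431 (plus) for Kif11, chr2:49619036-49619335 (plus) for Kif5c and chr11:53567119-53567418 (plus) for Kif3a.
Kif2c: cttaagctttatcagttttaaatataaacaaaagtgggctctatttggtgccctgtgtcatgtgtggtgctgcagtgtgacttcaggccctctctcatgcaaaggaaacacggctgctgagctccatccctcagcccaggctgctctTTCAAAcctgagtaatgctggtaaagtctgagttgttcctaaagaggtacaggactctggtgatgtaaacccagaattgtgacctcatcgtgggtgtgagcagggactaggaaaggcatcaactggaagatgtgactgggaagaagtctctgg
Kif18b: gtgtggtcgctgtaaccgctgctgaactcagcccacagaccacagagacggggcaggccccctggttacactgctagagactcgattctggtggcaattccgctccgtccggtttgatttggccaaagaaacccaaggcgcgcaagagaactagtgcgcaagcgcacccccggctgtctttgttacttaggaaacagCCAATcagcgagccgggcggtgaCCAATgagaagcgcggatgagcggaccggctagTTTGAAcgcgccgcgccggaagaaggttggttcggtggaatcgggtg
Kif22: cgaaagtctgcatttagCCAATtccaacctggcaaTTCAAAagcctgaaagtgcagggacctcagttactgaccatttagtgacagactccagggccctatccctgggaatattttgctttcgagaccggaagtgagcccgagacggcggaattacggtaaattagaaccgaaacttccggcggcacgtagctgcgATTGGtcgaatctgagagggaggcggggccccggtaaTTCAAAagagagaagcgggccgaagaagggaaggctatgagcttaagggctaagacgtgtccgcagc
Kif23: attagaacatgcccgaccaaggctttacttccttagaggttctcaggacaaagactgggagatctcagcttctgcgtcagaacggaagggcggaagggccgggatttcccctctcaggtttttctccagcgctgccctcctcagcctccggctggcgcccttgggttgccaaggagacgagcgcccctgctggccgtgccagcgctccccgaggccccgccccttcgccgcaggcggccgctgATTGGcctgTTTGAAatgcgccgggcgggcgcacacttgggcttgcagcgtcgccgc
Kif11: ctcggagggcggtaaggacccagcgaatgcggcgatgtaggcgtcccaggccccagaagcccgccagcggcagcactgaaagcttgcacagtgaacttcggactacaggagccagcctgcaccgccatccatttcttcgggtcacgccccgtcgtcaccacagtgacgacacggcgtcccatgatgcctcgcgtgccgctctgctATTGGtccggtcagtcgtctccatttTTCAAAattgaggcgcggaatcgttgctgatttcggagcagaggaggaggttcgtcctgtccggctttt
Kif5c: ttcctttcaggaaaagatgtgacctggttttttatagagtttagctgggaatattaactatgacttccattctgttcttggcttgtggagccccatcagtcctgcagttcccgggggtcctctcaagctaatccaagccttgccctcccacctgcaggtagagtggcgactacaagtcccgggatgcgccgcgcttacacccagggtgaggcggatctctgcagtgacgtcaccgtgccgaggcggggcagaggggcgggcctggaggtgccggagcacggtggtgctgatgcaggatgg
Kif3a: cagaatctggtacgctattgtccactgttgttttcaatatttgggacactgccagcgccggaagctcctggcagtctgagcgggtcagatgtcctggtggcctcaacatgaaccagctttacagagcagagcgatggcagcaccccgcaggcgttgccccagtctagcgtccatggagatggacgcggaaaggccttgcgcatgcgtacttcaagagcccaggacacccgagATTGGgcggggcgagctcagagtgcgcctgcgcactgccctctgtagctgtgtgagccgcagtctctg
By its leftmost base, the CHR match of Kif18b lies 3 bases after the annotated start and its CCAAT matches 53 and 30 bases before it, and those of Kif23 lie 2 bases after and 7 bases before it. Kif11, which did not differ beyond the replicate spread, carries both motifs as well, 19 and 45 bases before its start. The Kif5c window holds neither motif and the Kif3a window holds CCAAT alone. The Kif2c and Kif3a windows lie at annotated starts inside the locus, not at its 5′ end.

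Expression differences among the members were small, and more members were higher than lower in null libraries. In these bulk libraries, fewer cells of a type and less RNA per cell cannot be told apart. Of the 77 members, 68 had a mean of at least 1 FPKM over the 6 libraries and were tested with limma on log2(FPKM + 1), with adjustment over all 11480 loci of that level. Of the 68, 20 passed an adjusted p of 0.05, which is 29.4% against 25.2% of all tested loci. Higher in null were 14 (20.6%, against 12.8% of all tested loci) and lower were 6 (8.82%, against 12.4%). With each library rescaled to a common sum, the split was 16 higher and 3 lower. That scaling called 2990 of the 11480 loci. It moved the median log2 fold change of all tested loci to 0.035, from -0.003. All 3 null libraries lay above all control libraries for 21 members and below them for 10, and the groups overlapped for 37. Over all tested loci the groups did not overlap for 44.1%, with null above for 21.6% and below for 22.5%, so the members' 31 of 68 is near that background.

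Called members differed by a median of 0.26 in absolute log2 fold change, against 0.35 for all 2894 called loci, and 0 members changed by 1 or more on the log2 scale. The summed FPKM of the members was 2277, 2320 and 2288 in null and 2180, 2176 and 2202 in control libraries, groups that did not overlap. Bub1, Incenp, Kif2c, Kif18b, Kif20a, Plk3, Kif5a and Kif5c passed in every alternative fit in which they were tested. Leaving out 1 library lowered the count of members higher in null to 7 (without control replicate 1 or 2), 9 (without control replicate 3 or null replicate 3) or 10 (without null replicate 2), and the count lower in null to 2 (without control replicate 1 or 3), 3 (without control replicate 2 or null replicate 3) or 4 (without null replicate 2). Where a list below has 0 members called in a direction, its count at an unadjusted p under 0.05 was also 0, except where stated, and no other tool was run.

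**Figure D2:**
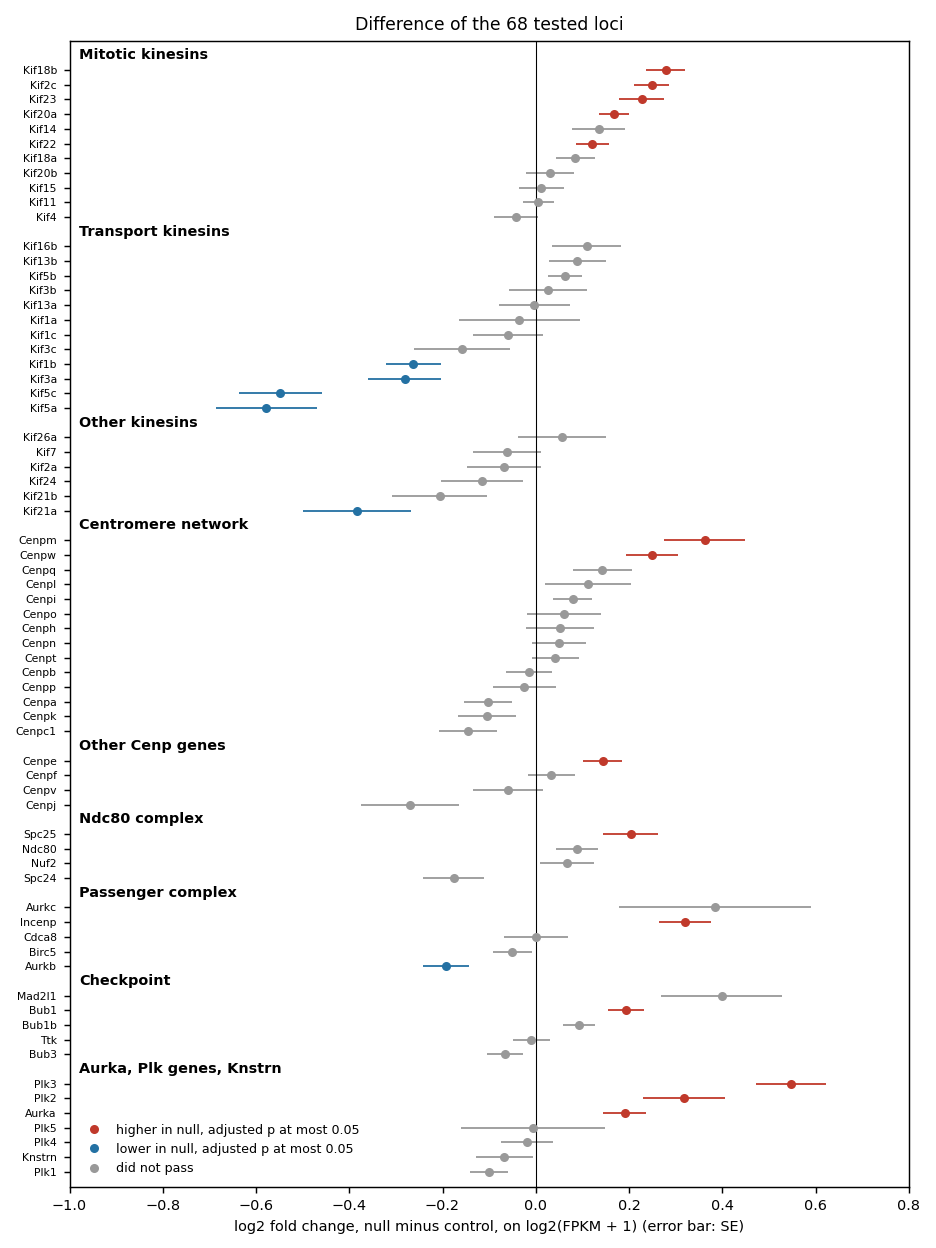
Log2 fold change (null minus control, on the log2(FPKM + 1) scale, horizontal axis) of the 68 tested members by role, with SE bars, in red where higher and in blue where lower in null at an adjusted p of at most 0.05. Blue points are 4 transport kinesins, Kif21a and Aurkb, and the 5 called mitotic kinesins are all red.

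Among the 11 mitotic kinesins, 5 were higher in null libraries and 0 were lower, and the median log2 fold change was 0.12 against -0.003 over all tested loci. Their share called higher was 45.5%, against 12.8% of all tested loci. Their summed FPKM was 534.5, 545.5 and 540.3 in null and 497.3, 491.3 and 504.9 in control libraries, groups that did not overlap.

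Kif2c, the microtubule-depolymerizing kinesin of the centromere, was at 58.5, 61.6 and 59.5 FPKM in null and at 50.1, 50.9 and 49.7 FPKM in control libraries. All null values lay above all control values, and the log2 fold change was 0.25 (SE 0.037, limma adjusted p = 0.00386). Kif18b, which limits the growth of astral microtubules, was at 32.0, 32.7 and 32.0 FPKM in null and at 27.4, 26.2 and 25.7 FPKM in control libraries. It had the largest fold change of the mitotic kinesins, 0.28 (SE 0.042, adjusted p = 0.00399). Kif20a, needed at the central spindle and in cytokinesis, was at 79.4, 81.0 and 79.6 FPKM in null and at 71.7, 71.0 and 70.5 FPKM in control libraries. Its groups were apart by more than the range of either (log2 fold change 0.17, SE 0.032, adjusted p = 0.00987). The Kif20a locus overlaps the genes Brd8 and Cdc23, and because no source states that strand was used, their reads may be shared.

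Kif23, a subunit of the centralspindlin complex of cytokinesis, was at 48.5, 46.4 and 43.6 FPKM in null and at 39.05, 38.7 and 40.2 FPKM in control libraries. The groups did not overlap and the log2 fold change was 0.23 (SE 0.048, adjusted p = 0.0149). Kif22, a chromosome-arm kinesin that pushes chromosomes to the spindle equator, was at 83.0, 86.1 and 84.7 FPKM in null and at 76.9, 76.7 and 79.6 FPKM in control libraries. Its difference was the smallest called in this set, 0.12 (SE 0.035, adjusted p = 0.0428). Over the 6 fits that leave out 1 library the adjusted p of Kif23 ran from 0.0131 to 0.0566, missing without control replicate 1 or 2, and that of Kif22 from 0.0424 to 0.130, passing only without null replicate 1.

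The other 6 mitotic kinesins did not pass. Kif11, the motor that slides spindle poles apart, was at 76.2, 75.5 and 78.3 FPKM in null and at 75.9, 75.75 and 77.5 FPKM in control libraries. These groups overlapped, with a log2 fold change of 0.01 (adjusted p = 0.921). Kif15, a second motor of spindle bipolarity, and Kif20b, which acts in cytokinesis, had log2 fold changes of 0.01 and 0.03. Kif4, a chromokinesin, had -0.04, Kif18a, which dampens chromosome oscillations, 0.08, and Kif14, a cytokinesis kinesin at 9.42 FPKM in null and 8.49 FPKM in control libraries, 0.13 (adjusted p = 0.125).

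**Figure D3:**
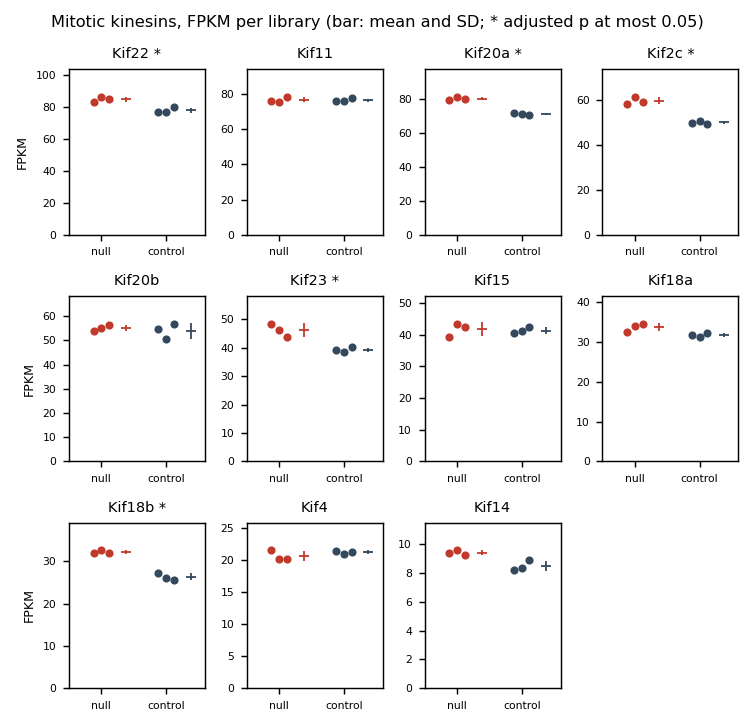
FPKM of the 11 mitotic kinesins (vertical axes from 0) in the 3 null (red) and 3 control (dark) libraries, with the mean and SD beside the points and a star at an adjusted p of at most 0.05. Kif22, Kif20a, Kif2c, Kif23 and Kif18b carry the star, and Kif11 lies at the same level in both groups.

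Of the 13 transport kinesin loci, 12 were tested, 0 were higher, 4 were lower in null libraries (33.3%, against 12.4% of all tested loci) and 8 did not pass. The median log2 fold change was -0.05, and it was 0.025 over those with a mean of at least 5 FPKM, a level that leaves out Kif5a, Kif5c and Kif3a among others. Kif5b, the conventional kinesin heavy chain used by most cell types, made up 51.1% to 52.4% of the summed transport kinesin FPKM in null and 48.05% to 49.2% in control libraries. The Kifc genes fall outside the member rule and so outside these counts. Of them, Kifc2 and Kifc3 were higher in null (log2 fold changes 0.50 and 0.74) and Kifc1 did not pass (-0.06).

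Kif5a, a conventional kinesin heavy chain of neurons, was at 3.09, 2.26 and 2.42 FPKM in null and at 4.68, 4.36 and 3.98 FPKM in control libraries. All null values lay below all control values, and the log2 fold change was -0.58 (SE 0.11, adjusted p = 0.00888). Kif5c, the other neuronal heavy chain, was at 2.01, 2.59 and 2.37 FPKM in null and at 3.75, 3.89 and 3.89 FPKM in control libraries, with a fold change of -0.55 (SE 0.090, adjusted p = 0.00538). By contrast, Kif5b was at 71.8, 74.5 and 76.0 FPKM in null and at 71.3, 69.8 and 71.7 FPKM in control libraries (0.06, adjusted p = 0.250). The ratio of Kif5c to Kif5b was 0.0280 to 0.0348 in null and 0.0526 to 0.0557 in control libraries, and that of Kif5a to Kif5b 0.0303 to 0.0430 in null and 0.0555 to 0.0656 in control libraries. All null libraries lay below the controls for Kif5a and Kif5c and above them for Kif5b, so both ratios separate by construction. The Kif5a locus overlaps the gene Dctn2, so its reads may be shared.

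Kif1b, a motor of mitochondria and synaptic vesicle precursors, was at 10.7, 10.6 and 9.84 FPKM in null and at 12.7, 12.05 and 13.2 FPKM in control libraries (log2 fold change -0.26, SE 0.060, adjusted p = 0.0187). Kif3a, a subunit of the heterotrimeric kinesin that builds cilia, was at 3.94, 4.52 and 4.49 FPKM in null and at 5.15, 5.46 and 5.76 FPKM in control libraries (-0.28, SE 0.078, adjusted p = 0.0368). For both genes the groups did not overlap. Kif3b, the partner of Kif3a, was at 6.11, 5.06 and 5.06 FPKM in null and at 5.36, 5.39 and 5.09 FPKM in control libraries, with overlapping groups (0.03, adjusted p = 0.849). Over the fits that leave out 1 library, the adjusted p of Kif3a ran from 0.0601 to 0.112 and passed in none, and that of Kif1b ran from 0.0271 to 0.0648, missing without null replicate 3 or control replicate 1 or 3.

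The remaining tested transport kinesins had log2 fold changes from -0.16 (Kif3c) to 0.11 (Kif16b, an early endosome motor), with adjusted p from 0.295 to 0.983. Kif13b was at 14.7 ± 0.819 FPKM in null and 13.8 ± 0.664 FPKM in control libraries (mean ± SD, n = 3 each). Kif1a, a neuronal vesicle motor, lay just above the FPKM minimum at 1.08 FPKM in null and 1.12 FPKM in control libraries. The summed FPKM of all 13 loci was 139.6, 145.9 and 145.2 in null and 146.7, 145.3 and 145.6 in control libraries, which overlap, and without Kif5b it was 67.8 to 71.4 in null and 73.9 to 75.5 in control libraries, which do not. Mitotic over transport kinesins gave a ratio of summed FPKM of 3.72 to 3.83 in null and 3.38 to 3.47 in control libraries.

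Of the 7 genes of the neural list 6 were tested, and 3 were lower in null, Tubb3, Pax6 and Neurod1 (50%, against 12.4% of all tested loci), and 0 higher (12.8% of all tested loci). Map2 and Sox1 had log2 fold changes of -0.20 and -0.12 and Nes 0.10, and these 3 did not pass (limma adjusted p = 0.141, 0.472 and 0.564). The neural list, most of it Tubb3, summed to 70.1, 62.6 and 71.1 FPKM in null and to 88.4, 90.2 and 81.4 FPKM in control libraries. Transcript length also differed, with a median of 6383 nucleotides for transport and 3536 for mitotic kinesins, and among all 2098 tested loci longer than 5000 nucleotides 17.4% were lower and 11.1% higher in null. The part of neural expression and of length in the kinesin differences was not tested.

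**Figure D4:**
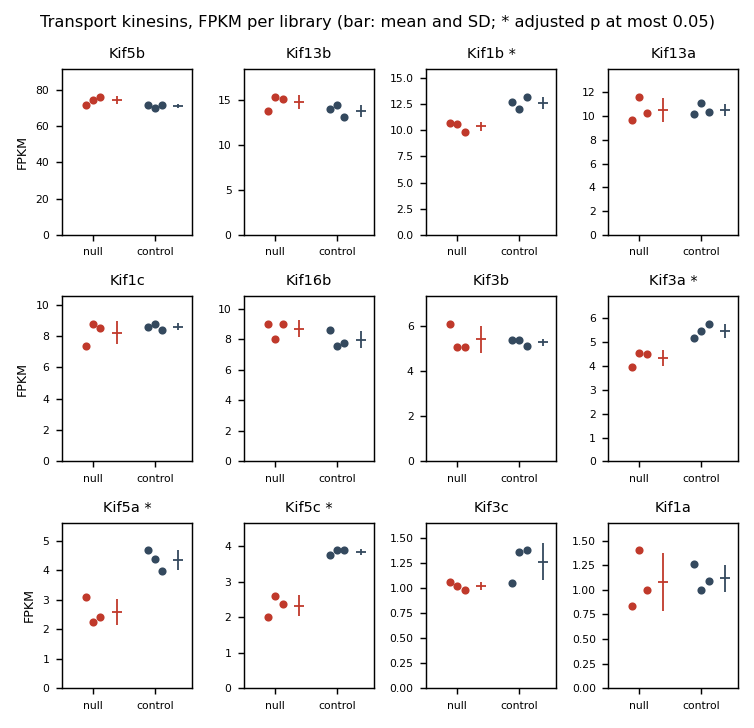
FPKM of the 12 tested transport kinesins (vertical axes from 0) in the 3 null (red) and 3 control (dark) libraries, with the mean and SD beside the points and a star at an adjusted p of at most 0.05. Kif1b, Kif3a, Kif5a and Kif5c carry the star, each with all null libraries below all control libraries.

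Of the 13 other kinesins 6 were tested, 1 was lower (16.7%, near the 12.4% of all tested loci) and 0 were higher. Kif21a, a kinesin that restrains microtubule growth in neurons, was at 0.981, 1.46 and 1.41 FPKM in null and at 2.02, 1.77 and 2.12 FPKM in control libraries. The groups did not overlap (log2 fold change -0.38, SE 0.12, adjusted p = 0.0486), but the call was lost in each of the 6 fits that leave out 1 library (adjusted p 0.0608 to 0.129). Its relative Kif21b, just above the FPKM minimum, was at 0.872 FPKM in null and 1.17 FPKM in control libraries and did not pass. Kif2a, a depolymerase of interphase cells and spindle poles, was the most abundant of this set at 17.8 ± 1.75 FPKM in null and 18.7 ± 1.12 FPKM in control libraries. Kif7, a regulator of Hedgehog signalling at the cilium tip, was at 4.42 FPKM in null and 4.66 FPKM in control libraries.

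The 9 members under the minimum were Kif9, Kif19a, Kif26b, Kif27, Kif6, Kif2b, Kif12, Kif17 and the pseudogene Kif4-ps, all kinesin loci. The highest of them, Kif9, was at 0.574, 0.196 and 0.203 FPKM in null and at 0.377, 0.157 and 0.237 FPKM in control libraries. Kif12 was listed at 0 in every library, and Kif2b at 0 in all but null replicate 1. Kif6 had values that, times depth, were whole multiples of 1 step, which read as 0, 1 and 0 fragments in null and 4, 5 and 2 fragments in control libraries. None of the 9 entered the test, and no difference between the groups is read from them.

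The centromere network loci within the member rule were mostly at similar levels in both groups. All 14 of these loci were tested, 2 were higher and 0 were lower (14.3% called, against 25.2% of all tested loci), with a median log2 fold change of 0.05. Genes listed under older symbols fall outside the rule. Among these, Apitd1 (Cenps) was higher in null (0.58, limma adjusted p = 0.0104), and Stra13 and Mlf1ip did not pass (0.13 and -0.07). Cenpm, a small subunit of the inner kinetochore, was at 26.7, 26.1 and 28.4 FPKM in null and at 22.0, 22.7 and 18.0 FPKM in control libraries, with all null values above all controls (0.36, SE 0.087, adjusted p = 0.0221). Cenpw, a histone-fold protein that pairs with Cenpt, was at 25.0, 23.8 and 24.4 FPKM in null and at 19.8, 19.5 and 21.9 FPKM in control libraries (0.25, SE 0.057, adjusted p = 0.0186). Without null replicate 3 neither passed, at up to 0.0721 for Cenpm, and Cenpw also missed without control replicate 1 or 2, at up to 0.0686.

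Cenpa, the centromeric histone that marks the site, was at 54.5, 49.9 and 48.3 FPKM in null and at 55.5, 54.5 and 54.0 FPKM in control libraries. It was the most abundant of the set, and its groups overlapped (-0.10, adjusted p = 0.178, but 0.0330 without null replicate 1, over a range of 0.0330 to 0.401 when 1 library is left out). Cenpt was at 48.2 ± 2.76 FPKM in null and 46.8 ± 0.962 FPKM in control libraries. Cenpc1, which joins the histone to the kinetochore, lay lower in all 3 null libraries but did not pass (-0.15, adjusted p = 0.126), and it was the 1 gene of the network lower at an unadjusted p under 0.05. The rest of the network ran from Cenpo, at 7.05 FPKM in null and 6.74 FPKM in control libraries, to Cenph, at 40.3 FPKM in null and 38.8 FPKM in control libraries.

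Of the 4 Cenp genes outside the network, 1 was higher and 0 were lower in null (25% called, near the 25.2% of all tested loci). Cenpe, the kinetochore motor that carries chromosomes to the spindle equator, was higher, at 37.2, 40.2 and 39.0 FPKM in null and at 34.5, 35.1 and 35.5 FPKM in control libraries (0.14, SE 0.043, adjusted p = 0.0469). The groups did not overlap, but over the fits without 1 library its adjusted p ran from 0.0281 to 0.136 and passed only without null replicate 1. Cenpf, of the outer kinetochore corona, was at 37.6 FPKM in null and 36.6 FPKM in control libraries. Cenpj, a centriole protein and not a centromere one, was at 3.07, 2.71 and 3.23 FPKM in null and at 3.60, 3.44 and 4.48 FPKM in control libraries, with all null values below all controls (-0.27, unadjusted p = 0.0359 and limma adjusted p = 0.102). Cenpv was at 42.6 FPKM in null and 44.4 FPKM in control libraries (adjusted p = 0.597).

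The 4 subunits of the Ndc80 complex, which grips spindle microtubules as paired dimers joined end to end, gave 1 higher, 0 lower and 3 that did not pass (25% called, near the 25.2% of all tested loci), and Spc24 lay under 0.05 by unadjusted p in the lower direction. Spc25 was at 59.8, 70.0 and 63.7 FPKM in null and at 56.8, 54.9 and 55.6 FPKM in control libraries (0.20, SE 0.059, adjusted p = 0.0412, groups apart). Its partner Spc24 was at 44.3, 46.5 and 50.9 FPKM in null and at 55.7, 49.9 and 54.8 FPKM in control libraries, where the groups overlap (-0.18, adjusted p = 0.0864). The ratio of Spc24 to Spc25 was 0.740, 0.663 and 0.80 in null and 0.980, 0.909 and 0.986 in control libraries, a pair of groups that did not overlap. Ndc80 was at 59.6 FPKM in null and 56.0 FPKM in control libraries (adjusted p = 0.192), and its partner Nuf2 at 23.5 FPKM in null and 22.3 FPKM in control libraries (adjusted p = 0.438). Their ratio, Nuf2 over Ndc80, was 0.362 to 0.411 in null and 0.384 to 0.408 in control libraries. When 1 library was left out, the adjusted p of Spc25 ran from 0.0159 to 0.121 and passed only without null replicate 1, and that of Spc24 ran from 0.0484 to 0.231 and passed only without null replicate 3.

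In the chromosomal passenger complex, which corrects wrong attachments and steers cytokinesis, the scaffold and the kinase moved in opposite directions. Of the 5 genes listed for it, with Aurkc, 1 was higher and 1 lower (20% each, against 12.8% and 12.4% of all tested loci). Incenp, the scaffold, was at 55.5, 58.2 and 63.3 FPKM in null and at 48.95, 46.4 and 45.7 FPKM in control libraries. The groups did not overlap, and the log2 fold change was 0.32 (SE 0.056, adjusted p = 0.00711). Aurkb, the kinase, was at 33.65, 33.9 and 31.0 FPKM in null and at 36.4, 38.0 and 38.5 FPKM in control libraries, lower in all 3 null libraries (-0.19, SE 0.049, adjusted p = 0.0279). Birc5, also called survivin, was the most abundant member of all at 134 ± 6.12 FPKM in null and 138 ± 2.71 FPKM in control libraries (adjusted p = 0.415), and Cdca8, also called borealin, was at 52.0 ± 3.12 FPKM in null and 52.0 ± 4.12 FPKM in control libraries (adjusted p = 0.9998). The ratio of Incenp to Aurkb was 1.65 to 2.04 in null and 1.19 to 1.34 in control libraries. With all null libraries above the controls for Incenp and below them for Aurkb, this ratio separates by construction.

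Aurora A and Aurora B differed in direction. Aurka, the spindle pole kinase, was at 79.6, 77.3 and 71.6 FPKM in null and at 66.5, 67.4 and 65.8 FPKM in control libraries (0.19, SE 0.046, adjusted p = 0.0233). The ratio of Aurka to Aurkb was 2.28 to 2.37 in null and 1.71 to 1.83 in control libraries. Since all null libraries lay above the controls for Aurka and below them for Aurkb, these ratios separate by construction. Aurkc, the Aurora kinase of germ cells and the early embryo, was at 4.18, 8.47 and 5.55 FPKM in null and at 3.83, 4.88 and 4.08 FPKM in control libraries, with null replicate 2 apart from the others (0.39, SE 0.21, adjusted p = 0.208). With 1 library left out the adjusted p of Aurka ran from 0.0126 to 0.0717, missing without null replicate 2 or any control replicate, and that of Aurkb from 0.0357 to 0.0896, missing without null replicate 3 or any control replicate. The Aurka locus overlaps the gene Cstf1.

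Of the 5 spindle assembly checkpoint genes, which hold anaphase until chromosomes are attached, 1 was higher and 0 were lower, and the 20% called was near the 25.2% of all tested loci. Bub1, a kinase of the kinetochore, was at 69.1, 69.9 and 69.7 FPKM in null and at 58.5, 60.9 and 62.8 FPKM in control libraries (0.19, SE 0.039, adjusted p = 0.0119). Bub1b, which encodes the checkpoint protein BubR1, was at 106, 103 and 105 FPKM in null and at 97.1, 99.95 and 97.0 FPKM in control libraries. These groups did not overlap, but the difference of 0.09 did not pass (adjusted p = 0.0821).

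Mad2l1, the checkpoint protein that inhibits the anaphase-promoting complex, was at 79.9, 111 and 75.65 FPKM in null and at 65.0, 66.05 and 67.4 FPKM in control libraries. All null values lay above the controls, null replicate 2 by far the most, and the log2 fold change of 0.40 (SE 0.13) did not pass (adjusted p = 0.0601). It passed without null replicate 2 (0.23, adjusted p = 0.0186) and without null replicate 3 (0.50, adjusted p = 0.0441), in a range of 0.0186 to 0.147 over the fits that leave out 1 library. Bub3 was at 66.8 FPKM in null and 69.9 FPKM in control libraries (adjusted p = 0.249), and the checkpoint kinase gene Ttk at 45.0 FPKM in null and 45.3 FPKM in control libraries (adjusted p = 0.886).

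Of the 7 genes Aurka, Knstrn and Plk1 to Plk5, 3 were higher and 0 lower in null (42.9% and 0%, against 12.8% and 12.4% of all tested loci). Among the Polo-like kinases, the stress-responsive Plk2 and Plk3 were higher and the mitotic Plk1 was not called. Plk3 was at 13.3, 14.6 and 15.1 FPKM in null and at 8.76, 10.2 and 9.52 FPKM in control libraries. Its log2 fold change of 0.55 (SE 0.075, adjusted p = 0.00281) was the largest rise among the called members. Plk2 was at 18.7, 23.3 and 23.7 FPKM in null and at 17.6, 16.9 and 17.4 FPKM in control libraries (0.32, SE 0.088, adjusted p = 0.0369). Null replicate 1 lay nearest the controls, and over the fits without 1 library the adjusted p of Plk2 ran from 0.00282 to 0.111, passing only without null replicate 1.

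Plk1, the main kinase of mitotic entry, was at 61.7, 58.5 and 60.45 FPKM in null and at 62.4, 66.7 and 64.9 FPKM in control libraries. All null values lay below the controls, and the difference of -0.10 did not pass (unadjusted p = 0.0430 and limma adjusted p = 0.115). Plk4, which starts centriole duplication, was at 30.2 ± 0.452 FPKM in null and 30.6 ± 2.07 FPKM in control libraries (adjusted p = 0.828). Plk5 was at 3.13 ± 0.850 FPKM in null and 3.09 ± 0.223 FPKM in control libraries, and Knstrn, a kinetochore-bound spindle protein, at 14.7 ± 1.05 FPKM in null and 15.4 ± 0.340 FPKM in control libraries. The Plk3 locus overlaps the gene Tctex1d4.

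**Figure D5:**
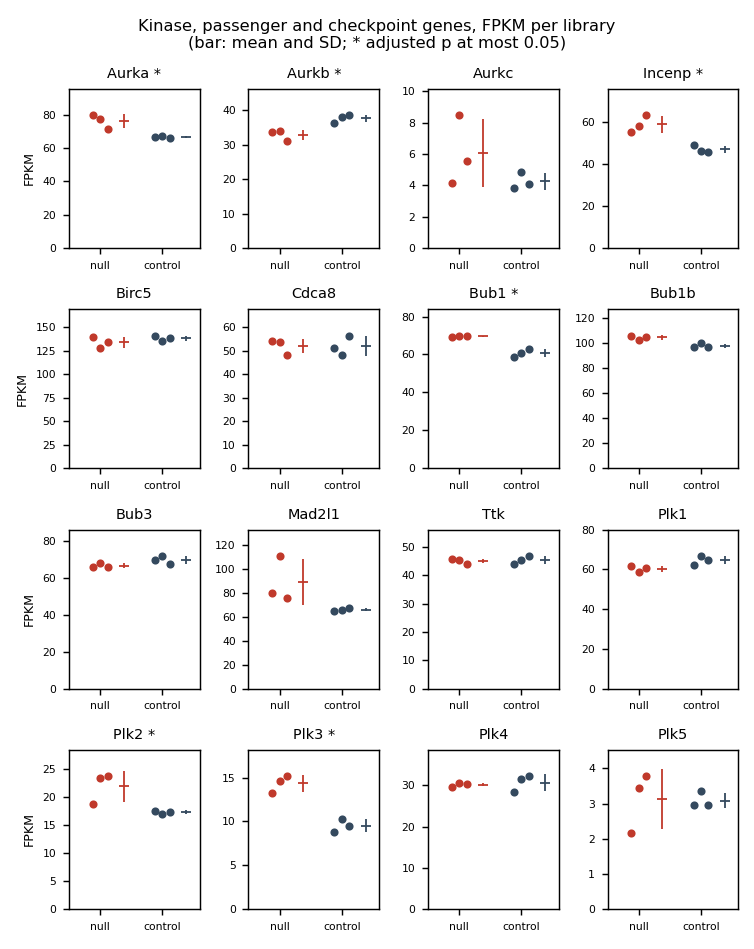
FPKM of 16 kinase, passenger complex and checkpoint genes (vertical axes from 0) in the 3 null (red) and 3 control (dark) libraries, with the mean and SD beside the points and a star at an adjusted p of at most 0.05. Aurka, Incenp, Bub1, Plk2 and Plk3 are starred as higher and Aurkb as lower in null, and Mad2l1 and Aurkc have 1 null library apart from the other 2.

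Genes of the pathway outside the member rule were counted in the same fit. Of 25 kinetochore, checkpoint and centromere-loading genes 4 were higher and 0 were lower in null (16% and 0%, against 12.8% and 12.4% of all tested loci), and their median log2 fold change was 0.10. Apitd1, the older symbol of the histone-fold gene Cenps, was at 21.5, 22.5 and 25.6 FPKM in null and at 14.6, 18.0 and 13.2 FPKM in control libraries (0.58, adjusted p = 0.0104), and Ska1, of the complex that couples the kinetochore to shrinking microtubules, averaged 19.6 FPKM in null and 16.0 FPKM in control libraries (0.28, adjusted p = 0.0377). Of 24 spindle, anaphase and cytokinesis genes 5 were higher and 2 lower (20.8% and 8.33%, against 12.8% and 12.4% of all tested loci), with a median of 0.04. The 2 lower genes act before Plk1 and Cdk1: Bora, which helps Aurora A to activate Plk1, averaged 14.2 FPKM in null and 18.3 FPKM in control libraries (-0.34, adjusted p = 0.00409), and the phosphatase gene Cdc25c 10.1 FPKM in null and 12.9 FPKM in control libraries (-0.33, adjusted p = 0.0148). Cdk1 itself was among the 5 higher, at 74.6 FPKM in null and 65.3 FPKM in control libraries (0.19, limma adjusted p = 0.00815). The others were Ect2, Prc1, Tpx2 and Cep55.

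Of 13 regulators of mitotic transcription 1 was higher and 2 were lower, and the 23.1% called was near the 25.2% of all tested loci. Lin37, a MuvB subunit, averaged 11.6 FPKM in null and 15.7 FPKM in control libraries (-0.40, adjusted p = 0.00971), and Nfyc, a subunit of NF-Y, 43.1 FPKM in null and 37.9 FPKM in control libraries (0.18, adjusted p = 0.0308). Of 14 cargo-transport partners 2 were higher and 3 lower (14.3% and 21.4%, against 12.8% and 12.4% of all tested loci). The higher ones were the minus-end kinesin genes Kifc3, at 23.4, 19.5 and 23.8 FPKM in null and 13.3, 12.75 and 12.6 FPKM in control libraries (0.74, adjusted p = 0.00123), and Kifc2, averaging 10.8 FPKM in null and 7.40 FPKM in control libraries (0.50, adjusted p = 0.00433). A list of 16 G1/S and replication genes was set beside them for comparison, chosen like the others with earlier results of these data known. It had 13 higher and 0 lower (81.2% higher, against 12.8% of all tested loci), with a median of 0.27 against 0.12 for the mitotic kinesins.

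Levels ranged widely within each role, for example from 0.109 to 70.9 FPKM for the control means of transport kinesins and from 4.26 to 138 FPKM for those of the passenger complex. Median FPKM over the genes of a role was 69.5 in null and 66.2 in control libraries for checkpoint genes, 53.4 in null and 54.6 in control for the Ndc80 complex, and 52.0 in null and 47.0 in control for the passenger complex. It was 46.2 in null and 41.3 in control libraries for mitotic kinesins, 38.2 in null and 35.9 in control for the other Cenp genes, and 25.7 in null and 24.4 in control for the centromere network. It was 21.9 in null and 17.3 in control libraries for Aurka, Knstrn and the Polo-like kinases, 5.41 in null and 5.46 in control for transport kinesins, and 0.324 in null and 0.257 in control for the other kinesins. The mitotic kinesins varied little between libraries, with a median coefficient of variation of 1.95% in null and 1.99% in control libraries, against 6.89% in null and 5.54% in control libraries over all tested loci, which include many genes of lower FPKM. For the transport kinesins these were 8.31% in null and 4.77% in control libraries.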

How the data were processed

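Each deposited table gives a single value for every locus of a library beside its symbol and RefSeq accessions, per the file headers. The values were read as FPKM calculated by the authors, as fractional values whose totals differ between libraries. Trim Galore, FastQC, TopHat, Cuffdiff and build mm10 stand in the submitters' processing notes. Their versions and roles, any scaling between libraries and the use of strand are not given in the sources. No raw counts were used, so no count test or counting interval was made.

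limma 3.58.1 (R 4.3.3; mean-variance trend, no covariate, Benjamini-Hochberg adjustment at 0.05) was fitted to log2(FPKM + 1) over the 11480 loci whose mean reached 1 FPKM. Fold changes on this scale understate changes of low genes. The fit was run on simulated data with independent normal noise and no clone or shared-culture structure. Most called members changed by less than the smallest change simulated there, so recovery of changes of that size was not tested. Alternatives were a pseudocount of 0.1, no minimum or 5 FPKM, 3 scalings (median centring, quantile normalization, a common sum), no trend, a replicate block and each library left out. Of the 77 member loci, 24 overlap another protein-coding or long noncoding gene, and reads there may be shared. Of the 20 called, 7 are among them: Kif20a, Aurka, Kif5a, Plk3 and Kif21a, and, by noncoding genes alone, Kif3a and Kif5c. Promoter letters and positions are from RefSeq (GRCm38.p6), transcript lengths from GENCODE transcripts.

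Members, lists and subunit ratios were chosen with earlier results of these data known. Named were every called member, all tested kinase, Ndc80, passenger and checkpoint members, the most abundant 2 of each other list, members near the minimum, and the 2 largest called changes of each pathway list. Other names were chosen after their values were seen.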

Additional observations from a re-analysis of the deposited data

How the results depend on the processing

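The counts were 14 members higher and 6 lower in null, with 5 mitotic kinesins higher and 4 transport kinesins lower. A replicate block gave 9, 2, 4 and 2, with 2264 of all 11480 tested loci called, against 2894 in the main fit. Whether the replicate numbers pair the libraries is not given in the labels. Deviations of same-numbered libraries correlated at -0.00242, 0.108 and 0.0527, and those of differently numbered libraries at -0.222 to 0.163. With 3 libraries a group these values cannot decide whether the libraries were paired. Without the mean-variance trend 9 members were higher, with 2669 loci called. Without a minimum 11 members were higher and 4 lower, with 2560 of 18476 loci called. With a minimum of 5 FPKM 2 members and 1 transport kinesin were lower, since fewer genes were tested, and the median log2 fold change of transport kinesins reversed, at 0.025 against -0.05. Rescaling to a common sum gave 3 lower and a median of 0.16 for mitotic kinesins, and quantile normalization a median of 0.067, against 0.12. Over all tested loci the medians of these fits were 0.035 and -0.0032, against -0.003. Leaving out 1 library, and so with fewer samples, members higher ranged from 7 to 14 and lower from 2 to 5, mitotic kinesins higher from 3 to 5, transport kinesins lower from 2 to 3, the mitotic median from 0.11 to 0.14 and the transport median from -0.12 to -0.021. Over all tested loci 1697 to 2903 were called in these fits. Zscan10 kept its call in every alternative, from -3.05 (pseudocount 0.1) to -2.76. No called member changed sign under any alternative. Elsewhere the cause was not tested. With 3 libraries a group and differences mostly under 0.3 on the log2 scale, calls near the threshold depend on single libraries, and the depth does not allow statements on members under 1 FPKM.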
